A study of Homo sapiens with 4 samples.

Results

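The DNA replication licensing and fork genes are 45 protein-coding genes, chosen by name for their roles in loading and firing the replicative helicase and in copying DNA at the fork. All 45 symbols matched 1 gene each among the 20046 protein-coding genes, and 62700 genes of every kind, in GENCODE 44. Their m6A peaks were taken from meRIP-seq of OE-19 cells, an established line of adenocarcinoma of the esophagogastric junction (AEG). For these samples the sources give no drug treatment or genetic change of the cells, while the labels describe UV-fixed cells. In meRIP-seq, RNA fragments with N6-methyladenosine (m6A) are pulled down by an antibody and sequenced, and stretches with an excess of such fragments are reported as peaks. The series held 2 m6A immunoprecipitation (IP) samples and 2 input samples. Each IP sample had its own peak list, with 24607 peaks in replicate 1 and 19318 in replicate 2 while the input samples are not analysed here. The study's paper calls the replicates biological, while nothing in the labels says that they came from separate cultures. How far the spread between them is technical is therefore not known. The peaks describe 1 cell line in 1 state, and the comparisons are between the replicates and between these genes and all protein-coding genes. The lists hold no read numbers, so the depth is unknown. They hold no transcript levels either, so a gene without a peak may be unmethylated, weakly expressed or below the caller's threshold, and these cannot be told apart.

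Before S phase, the origin recognition complex (ORC), CDC6 and CDT1 load the ring of MCM2 to MCM7 onto origins, a step called licensing, which geminin (GMNN) blocks outside G1 by binding CDT1. The kinase CDC7 with its activator DBF4, together with cyclin-dependent kinases, then turns the ring into the working helicase with CDC45 and the GINS proteins. Primase and polymerase alpha start each strand, polymerases epsilon and delta extend it with the clamp PCNA and its loader RFC, RPA coats the exposed single strand, and FEN1 and LIG1 join Okazaki fragments. m6A is laid down on mRNA by the METTL3 complex, mostly at a DRACH sequence, of which GGAC is a common core, and is known to gather near stop codons, in last exons and in long internal exons.

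The coding sequence under strong peaks is shown here, to let the motif and the summit be seen in place. The 4 members with the largest mean fold enrichment of a peak found in both lists, among those whose replicate 1 summit lay in coding sequence (CDS), were ORC1, GINS3, DBF4 and CDC7. Each run is hg38 sequence on the strand of the gene, is 101 nt long and has the replicate 1 summit at position 51, and GGAC is in capitals. They are chr1:52393547-52393647 on the minus strand, in exon 6 of ORC1, and, on the plus strand, chr16:58404602-58404702 in exon 4 of GINS3, chr7:87907511-87907611 in exon 12 of DBF4 and chr1:91524132-91524232 in exon 12 of CDC7.
ORC1: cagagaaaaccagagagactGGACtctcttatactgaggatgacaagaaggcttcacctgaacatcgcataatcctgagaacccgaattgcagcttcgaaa
GINS3: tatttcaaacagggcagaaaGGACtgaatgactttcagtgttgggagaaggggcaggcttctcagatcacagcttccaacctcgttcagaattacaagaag
DBF4: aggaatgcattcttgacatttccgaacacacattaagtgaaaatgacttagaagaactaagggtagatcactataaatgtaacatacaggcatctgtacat
CDC7: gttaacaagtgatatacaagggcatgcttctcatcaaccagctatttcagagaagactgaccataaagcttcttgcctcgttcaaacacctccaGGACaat

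The run from DBF4 holds no GGAC, and the other 3 hold 1 each. In ORC1 and GINS3 the adenine of GGAC lay 28 nt upstream of the summit, and in CDC7 it lay 46 nt downstream. Other forms of DRACH are not marked in these runs, and some lie nearer the summit, such as agact in CDC7.

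To ask how often these genes carried m6A, a gene was counted when a peak summit lay in any of its exons. Of the 45 members, 19 had such a peak in both lists, which is 42.2% (95% Wilson interval 29.0% to 56.7%). Over all protein-coding genes the share was 33.4%. Longer genes carried peaks more often, so the shares of all protein-coding genes in 20 bins of exonic length were averaged over the bins that the members occupy, which gave 36.7%. This length-adjusted share lies inside the members' interval. In replicate 1 a peak was present in 23 members, against 42.4% of all protein-coding genes, and in replicate 2 in 19 members, against 34.1%. Every member with a peak in replicate 2 also had one in replicate 1. Over all protein-coding genes this held for 6686 of the 6838 with a peak in replicate 2. No peak in either list was found for 22 of the 45 members. Of the 20046 protein-coding genes, 8494 had a peak in replicate 1, 6838 in replicate 2 and 6686 in both. These counts fix the share of all genes with none. Among members under 4460 bp of exonic length, 7 of 21 had a peak in both lists, beside 21.9% of all protein-coding genes of those bins. From there to 7216 bp it was 7 of 13, beside 41.4%, and above that 5 of 11, beside 48.6%. The members' share was above that of all genes in the lower and middle classes and not in the upper, with few members in each. Within the lower class the genes are not matched for length. Bins 1 and 2, at 3.14% and 8.43% of all genes, held 0 members, while bin 7, at 29.6%, held 7. The 21.9% thus understates the share for genes of like length. The intervals given here cover counting error only.

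**Figure D1:**
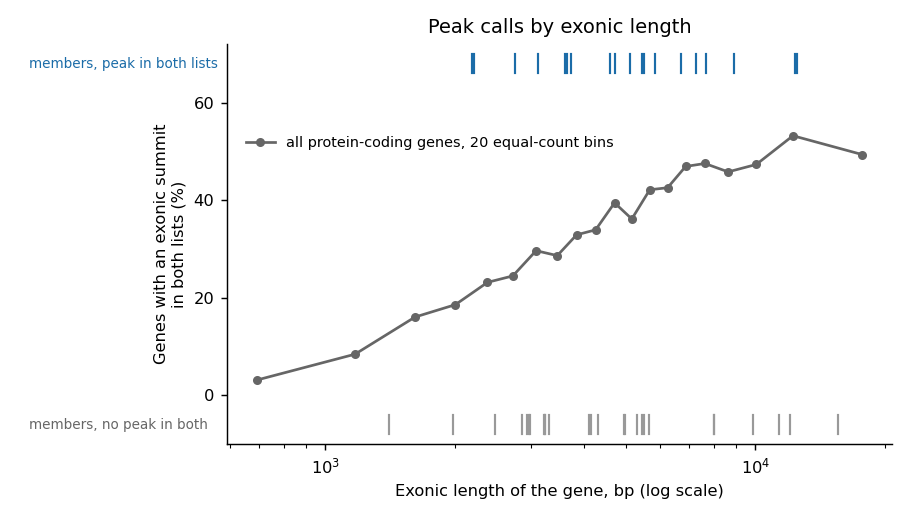
Percentage of protein-coding genes with an exonic peak summit in both lists (y axis) against exonic length in bp (log x axis), as the median of 20 equal-count bins. Blue ticks above are the exonic lengths of the 19 members with a peak in both lists and grey ticks below those of the 26 other members, and both sets of ticks span short and long genes while the line climbs from 3.14% to 49.3% with a high of 53.2%.

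The count depended on the strength required of a peak. With a fold enrichment of 5 or more in both lists, 6 members remained, or 13.3% (interval 6.26% to 26.2%), below the 21.7% of protein-coding genes of like exonic length, although the interval includes that value. Those 6 were ORC1, MCM9, MCM10, CDC7, DBF4 and GINS3. With q of 1e-05 or less, 18 members were counted, beside 33.6% for genes of like length. The summit of 2 members counted in both lists, MCM2 and ORC4, lay only where an exon of another gene overlaps, on the opposite strand in each case. Since the lists carry no strand, those reads cannot be placed, and 17 members were left without them. These are 37.8% (interval 25.1% to 52.4%), beside 33.3% for genes of like exonic length counted in the same way.

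The members are described by role, and the roles hold from 2 to 6 genes each, too few for their counts to be read against the share of all genes. The origin recognition complex was marked on 4 of its 6 genes. ORC1, the subunit that is degraded after G1 in human cells, had the strongest replicate 1 peak of all members, enriched 18.3-fold there and 7.20-fold in replicate 2. These values stood at percentile 98.9 of the exonic peaks in protein-coding genes of replicate 1 and 79.7 of replicate 2, so the peak was strong in both lists but much stronger in replicate 1. It spanned chr1:52393458-52393777 in replicate 1 and chr1:52393459-52393707 in replicate 2, in coding exon 6 of 17, with summits 7 bp apart. A further ORC1 peak in exon 5, of 6.14, was found in replicate 1 alone. ORC2, a core subunit, reached 5.84 and 3.27 in its 3′ UTR, 220 and 217 nt after the stop codon. ORC5, an ATP-binding subunit, reached 6.01 and 3.74, with summits 134 and 94 nt after the stop codon. The ORC4 peak, of 5.84 and 4.09, lay in the 5′ UTR of alternative transcripts and in an exon of MBD5 on the other strand. ORC3 and ORC6 had no exonic peak in either list.

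Among the licensing factors, only CDT1 had peaks. It had 6 in replicate 1, the most of any member, with fold enrichments from 1.93 to 4.01, and 2 in replicate 2, of 1.97 and 3.20. The 4 replicate 1 peaks without a partner in replicate 2 included those in exons 1, 7 and 9, while both replicate 2 peaks lay in the last exon. CDT1 was thus covered by several weak peaks rather than a strong one, and the summit shared near the stop codon had values of 2.71 and 1.97. CDC6, which recruits CDT1 and the helicase to ORC, and GMNN had no exonic peak in either list.

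The helicase ring was divided evenly. MCM2, MCM3 and MCM5 each had 1 peak per list, all in the last exon, and MCM4, MCM6 and MCM7 had none. MCM2 was enriched 4.27-fold in replicate 1 and 3.05-fold in replicate 2, with the summit at the same base in both, 131 nt after the stop codon. An exon of ENSG00000285600 on the opposite strand overlaps that base. MCM3 reached 3.77 and 3.36, and MCM5 reached 3.0 and 1.97. All 6 values were below the median of their list, which was 5.21 in replicate 1 and 4.72 in replicate 2 over exonic peaks in protein-coding genes. A low fold enrichment could go with a very small q, as for MCM3, whose −log10 q was 38.3 and 40.9, close to the 46.5 of ORC1 in replicate 1. The nearest GGAC to each of these summits is shown in 21 nt of hg38 on the gene's strand, with that motif in capitals. In each of the 3 marked ring genes it lies after the stop codon. Their transcripts hold 23, 20 and 21 GGAC, beside 14, 17 and 13 in MCM4, MCM6 and MCM7. Whether the unmarked genes also hold one after the stop codon was not looked at. MCM2 and MCM5 are on the plus strand at chr3:127621835-127621855 and chr22:35424264-35424284 (replicate 1 summit), and MCM3 is on the minus strand at chr6:52264356-52264376.
MCM2: tgctttatGGACacaaaacca
MCM3: gtgggagaGGACaatgactat
MCM5: gcctcactGGACtcatggact

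The adenine of the motif lay 57 nt upstream of the MCM2 summit and 9 nt upstream of the replicate 1 summit of MCM3. In MCM5 it lay 1 nt from the summit, and a further GGAC followed 8 nt on, 1 nt from the replicate 2 summit. The MCM2 site was thus outside the window of 50 nt used below.

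The 3 other MCM genes all had peaks in both lists, and the strongest shared peak of each exceeded those of the ring in both. MCM8, which acts with MCM9 in recombination repair, had a peak of 10.8 in replicate 1 and 4.58 in replicate 2, in the 3′ UTR of an alternative transcript, and a 5′ UTR peak of 2.99 in replicate 1 alone. MCM9 had 3 peaks in each list. Its strongest shared peak, in the CDS part of its last exon, had values of 7.17 and 7.57, and the peak at its stop codon 6.80 and 6.69, so the replicates of these peaks were close. The third peak of MCM9, of 7.35 and 3.27, lay in an exon of ASF1A on the opposite strand and cannot be assigned. MCM10, which helps to start the helicase, had 1 peak per list, 65 and 58 nt after the stop codon, at 7.73 and 7.26.

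Both subunits of the firing kinase were marked, and both in the coding part of a long last exon. DBF4, the activating subunit, was enriched 13.2-fold in replicate 1 and 5.65-fold in replicate 2, with the summits 600 and 635 nt before the stop codon in a last exon of 2366 nt. CDC7, the kinase itself, reached 8.60 and 6.74, 251 and 233 nt before the stop codon in a last exon of 1724 nt. DBF4 therefore differed more between the lists, with a log2 ratio of replicate 1 over replicate 2 of 1.23, against 0.35 for CDC7. In replicate 1 the DBF4 peak spanned chr7:87907212-87907947 and the CDC7 peak chr1:91524048-91524346. The DBF4 ratio stood at percentile 93.0 of all pairs of peaks in protein-coding genes, near those of ORC1 (95.1) and MCM8 (93.2). These 3 members have the strongest replicate 1 peaks, and a large replicate 1 value raises the ratio by construction.

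Of CDC45 and the 4 GINS genes, GINS3 alone had a peak in both lists. Its stop codon peak reached 8.96 in replicate 1 and 8.61 in replicate 2, and the latter was the highest member value of that list. The summits were 3 nt apart, 75 and 72 nt before the stop codon. A peak in exon 3, of 3.34 and 4.98, was also shared, and a peak of 7.80 at the 5′ end of the gene was found in replicate 1 alone, where an exon of an antisense gene overlaps. CDC45, GINS1, GINS2 and GINS4 had no exonic peak in either list, although GINS1, GINS2 and GINS4 have last exons of 2540, 2140 and 3040 nt, longer than the 983 nt of GINS3. A long last exon was therefore also present in members without a peak.

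Of the polymerase genes, none of the 4 of polymerase alpha and primase and 2 of the 5 of polymerases delta and epsilon had a peak in both lists. POLA2 had a single peak in replicate 1, of 5.48, where an exon of an antisense gene overlaps, and POLA1, PRIM1 and PRIM2 had none. POLD3, an accessory subunit of polymerase delta, had a shared peak of 7.54 and 4.23 just before its stop codon, and a peak of 2.40 in replicate 1 alone. POLE, the catalytic subunit of polymerase epsilon, had 2 shared peaks in its last exon, of 4.90 and 4.14 in the 3′ UTR and of 3.98 and 2.98 at the stop codon. POLD1 had peaks of 2.42 and 4.79 in replicate 1 alone, and POLD2 and POLE2 had none. POLE is the longest transcript among the members, at 7823 nt and 49 exons, and its peaks lay in the last of these.

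Of the clamp, its loader, RPA and the genes that join Okazaki fragments, RFC1, RFC2 and FEN1 had a peak in both lists. RFC1, the large subunit of the loader, had a peak of 4.47 and 3.73 in exon 13. RFC2, a small subunit, had a peak of 5.12 and 2.52 at 20 and 41 nt after the stop codon. PCNA had a peak in replicate 1 alone, of 2.05, and so did RPA1, of 1.78, the lowest member value. FEN1, the flap endonuclease, had a peak of 6.52 in replicate 1 that was 1647 bp wide and overlapped both FEN1 peaks of replicate 2, of 4.34 and 3.52. RFC3, RFC4, RFC5, RPA2, RPA3 and LIG1 had no exonic peak in either list.

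**Figure D2:**
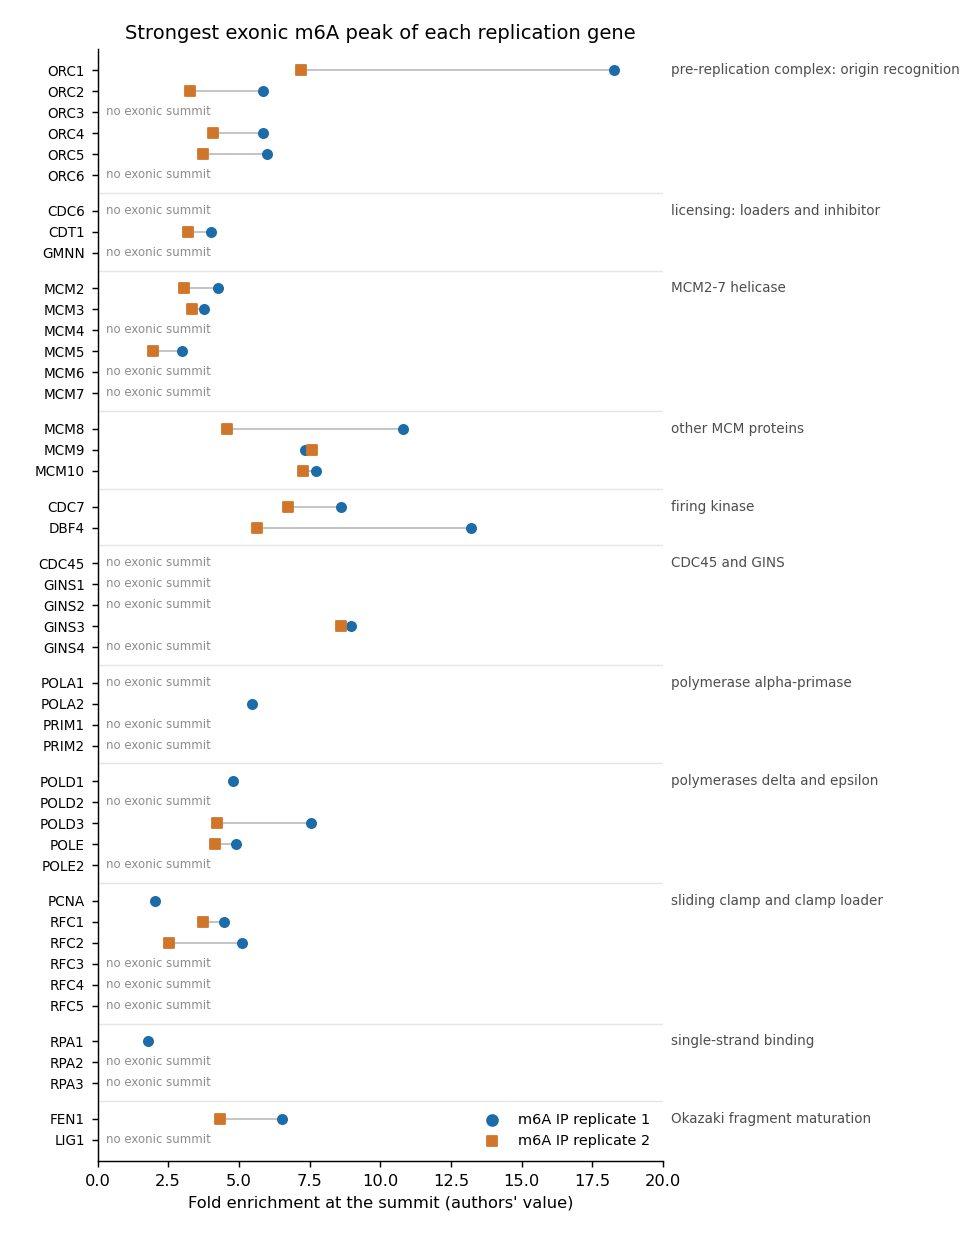
Fold enrichment at the summit, as the authors' peak caller gave it (x axis), of the strongest exonic peak of each of the 45 members, grouped by role, with blue circles for replicate 1 and orange squares for replicate 2. Of the 19 members with both symbols, ORC1 is highest in replicate 1 at 18.3, MCM2, MCM3 and MCM5 sit between 1.97 and 4.27, and POLA2, POLD1, PCNA and RPA1 have a replicate 1 symbol alone.

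In all, 37 exonic peaks of replicate 1 and 25 of replicate 2 lay in the members. Their median fold enrichment was 4.90 in replicate 1 (quartiles 3.0 and 7.17), beside 5.21 over 18488 exonic peaks in protein-coding genes. In replicate 2 it was 4.09 (quartiles 3.27 and 5.65), beside 4.72 over 12003 peaks. Among the strongest 10% of exonic peaks there were 2 of the members' 37 peaks in replicate 1, those of ORC1 and DBF4, and 0 of 25 in replicate 2.

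The replicates were then compared peak by peak. All 25 member peaks of replicate 2 overlapped a peak of replicate 1 by at least 1 bp (100%, 95% Wilson interval 86.7% to 100%), beside 95.9% of all exonic peaks in protein-coding genes. In the other direction 24 of 37 did (64.9%, interval 48.8% to 78.2%), beside 60.6%. The 13 replicate 1 peaks without a partner had a median fold enrichment of 2.72 and the 24 with one 5.93, beside 3.96 and 6.47 over all such peaks. By the median, peaks seen in replicate 1 alone were thus the weaker ones. For 24 pairs, in which each peak overlapped its partner more than any other peak, the summits were at most 100 bp apart in all 24, with a median distance of 16 bp, beside 26 bp over 11018 pairs. Replicate 1 had the larger fold enrichment for 22 of these 24 (91.7%, beside 80.2% over all pairs), and the log2 ratio had a median of 0.47, beside 0.43. Each list is 1 library, so a gap in fold enrichment for a gene cannot be told apart from the offset between the libraries.

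The position of the summits on the transcript was examined next, on the transcript with the longest CDS of each gene. It held 32 of the 37 summits of replicate 1 and 22 of the 25 of replicate 2. A window reaching 200 nt to either side of the stop codon held 11 of the 32 (34.4%, interval 20.4% to 51.7%) in replicate 1. That window makes up 13.8% of the length of the same transcripts, counted once per summit, and over all protein-coding genes it held 24.5% of summits. In replicate 2 it held 10 of 22 (45.5%, interval 26.9% to 65.3%), against 13.6% of transcript length and 27.1% of all summits. The share near the stop codon exceeded the length of that window in both lists. CDS outside the window held 40.6% and 31.8% of member summits in the respective lists, while it takes up 56.2% and 57.1% of transcript length. In the rest of the 3′ UTR lay 18.8% and 22.7%, against 25.2% and 24.6% of the length. The 5′ UTR held 2 summits in replicate 1, in MCM8 and GINS3, and 0 in replicate 2. Summits of the same gene are not independent, so the intervals are too narrow to that extent.

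**Figure D3:**
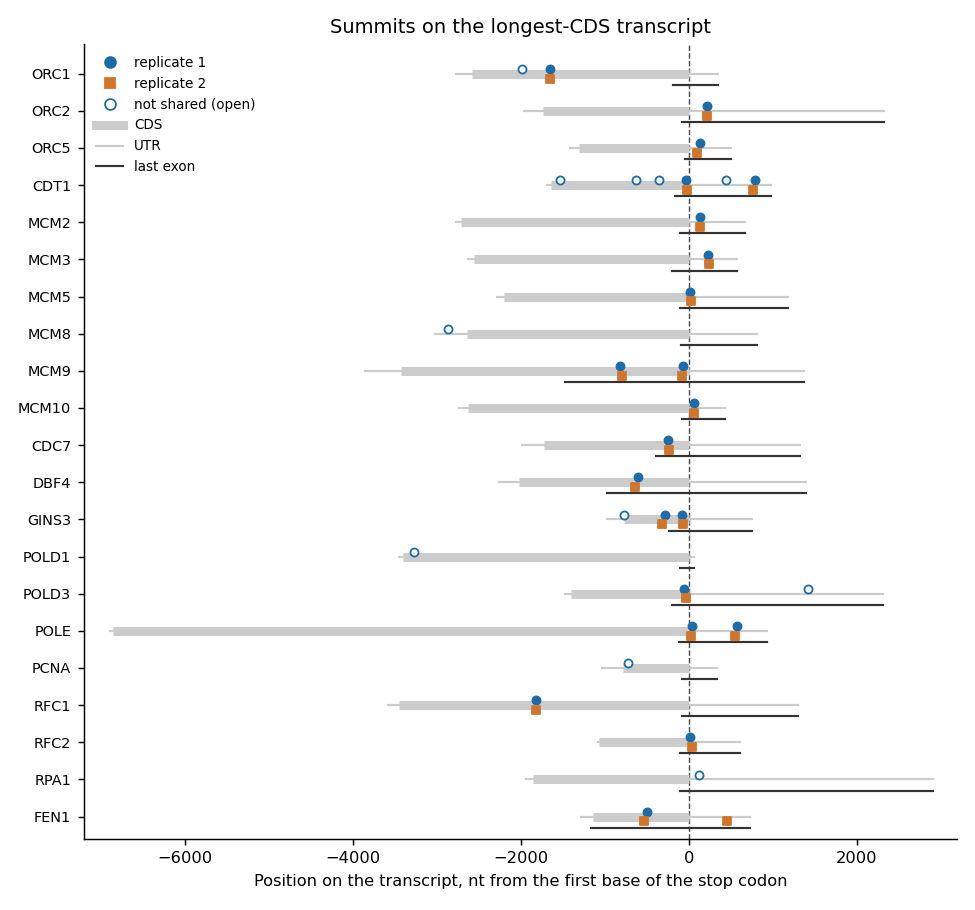
Summits of the exonic peaks of 21 members on the longest-CDS transcript, in nt before or after the stop codon (x axis, dashed line at 0), with the CDS as a thick grey line, the UTRs as thin lines and the last exon as a black line beneath. Blue circles are replicate 1, orange squares replicate 2, and open symbols are peaks without a partner in the other list, and most filled symbols lie over the last exon, with ORC1, RFC1 and exon 3 of GINS3 as the exceptions.

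The members had many short exons. Of the 45, only RPA3 had an internal exon of 400 nt or more on its longest-CDS transcript (2.22%), beside 18.7% of 19702 protein-coding genes with a coding transcript, and RPA3 had no peak. The median member had 14 exons and a last exon of 937 nt, beside 8 exons and 1267 nt over those genes. Protein-coding genes without a long internal exon had a peak in both lists in 28.1% of cases, and those with one in 56.8%. The members' 42.2% stands beside the lower of these figures. Neither figure is matched for exonic length, and the shortest bins of all genes, at 3.14% and 8.43%, held 0 members. Averaged over bins of longest exon length, a comparison added after the data were seen, the share of protein-coding genes with a peak in both lists was 28.9%. This lies just below the lower end of the members' interval, 28.92% against 28.97%. The planned shares by exonic length (36.7%) and by transcript length (34.8%) lie inside it, so the reading depends on which length is used. For each list alone, the share by longest exon lies inside the members' interval. It was 38.6% in replicate 1 (interval 37.0% to 65.0%) and 29.6% in replicate 2 (interval 29.0% to 56.7%).

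The last exon held 21 of 32 member summits in replicate 1 (65.6%, interval 48.3% to 79.6%) and 19 of 22 in replicate 2 (86.4%, interval 66.7% to 95.3%). It makes up 41.2% and 44.5% of the length of the same transcripts. Over all protein-coding genes 50.6% and 59.5% of summits were in the last exon. A further 18.4% and 23.8% were in internal exons of 400 nt or more. The transcripts behind the member summits have 0% of their length in such exons, so 0 member summits there was fixed in advance. The last exon shares of members and of all genes are therefore not like for like.

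The few summits in internal exons lay in the larger of these exons. In replicate 1 there were 8, and 6 of them were in the longest internal exon of their transcript, although that exon makes up 23.5% of internal exon length. They were exon 6 of ORC1 (361 nt), exon 3 of GINS3 (234 nt), exon 9 of CDT1 (202 nt), exon 2 of POLD1 (203 nt), exon 2 of PCNA (337 nt) and exon 13 of RFC1 (397 nt). The other two were in exon 5 of ORC1, the next longest, and exon 7 of CDT1. In replicate 2 all 3 were in the longest internal exon, those of ORC1, GINS3 and RFC1. Over all protein-coding genes with several internal exons, 51.9% of internal exon summits in replicate 1 and 68.4% in replicate 2 were in the longest. With 8 and 3 summits, the members' shares have intervals of 40.9% to 92.9% and 43.9% to 100%, which include those values.

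**Figure D4:**
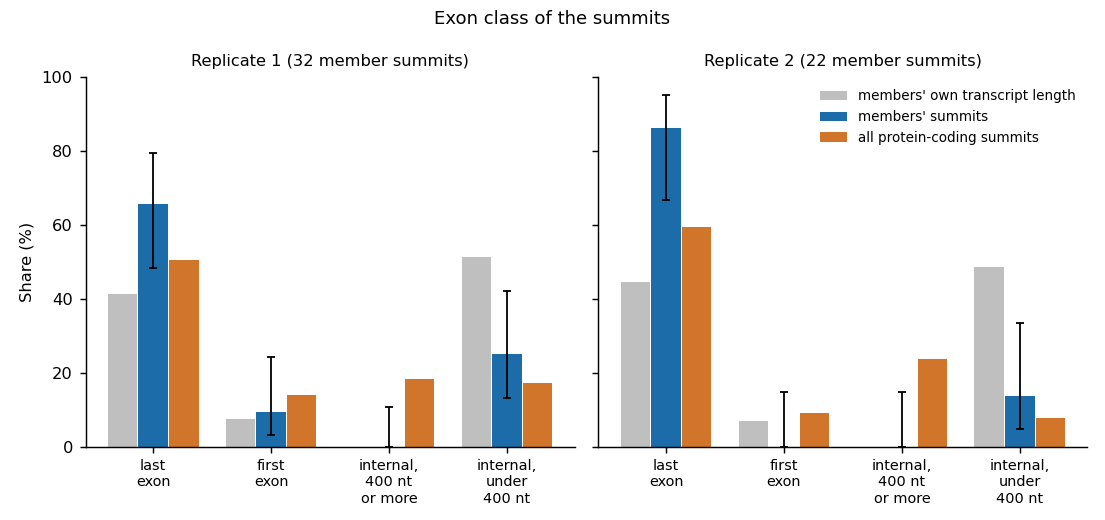
Share in percent (y axis) of the members' summits (blue, with 95% Wilson intervals), of the length of the same transcripts (grey) and of all protein-coding summits (orange) in the last exon, the first exon, internal exons of 400 nt or more and shorter internal exons, for replicate 1 with 32 and replicate 2 with 22 member summits. The blue bar exceeds the grey one in the last exon in both lists. In internal exons of 400 nt or more the members have 0% of transcript length and so 0 summits.

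Members with and without peaks differed in size. The 19 with a peak in both lists had a median transcript of 3434 nt and a median last exon of 1144 nt, and the 22 with none 2386 nt and 609 nt. A like difference held beyond the members. Protein-coding genes with a peak in both lists had medians of 3783 nt and 1908 nt, beside 2816 nt and 1267 nt for all of them. Among the members the ranges overlapped, since POLA1, at 5487 nt, had no peak and RFC2, at 1685 nt, did. The density of GGAC in the transcript was alike in members with a peak in both lists and with none, at a median of 3.39 and 3.28 per 1000 nt. CDC45, with 7.72 per 1000 nt, had no peak, whereas ORC2, with 1.17, did.

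Finally, GGAC was searched on the gene's strand within 50 nt of each summit. It was present at 18 of 37 member summits in replicate 1 (48.7%, interval 33.5% to 64.1%) and 10 of 25 in replicate 2 (40%, interval 23.4% to 59.3%). When every exonic position of these genes not covered by a peak was scanned, 26.4% and 24.5% of positions had GGAC as near. Over all summits in protein-coding genes the shares were 49.8% and 51.8%. Only the replicate 1 interval lies wholly above the members' own exons. GTCC, its reverse complement, which a methylated adenine on the mRNA would not need, was present at 35.1% and 36.0% of member summits, against 27.4% and 26.1% of the other positions. TGGAC, which contains GGAC, was present at 18.9% and 20%, against 9.32% and 7.93%.

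Where a shared CDS peak had GGAC close by, as in POLD3 before its stop codon and in RFC1 within exon 13, the site is shown in the same 21 nt form, at chr11:74640694-74640714 on the plus strand and chr4:39308904-39308924 on the minus strand.
POLD3: caagaaagGGACtgctgctct
RFC1: tccaaaagGGACagtttggca

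The adenine lay 8 and 25 nt from the POLD3 summits and 22 and 26 nt from those of RFC1, upstream in each case. The replication genes with the strongest peaks were not all rich in GGAC near the summit. No GGAC lay within 50 nt of either summit of DBF4 or MCM10, whereas both MCM5 summits, among the weakest, had 2 each. In DBF4 the nearest GGAC to the replicate 1 summit lay 142 nt downstream, still inside the peak. DRACH forms without GGAC were not searched. The strongest peak, in ORC1, had GGAC within TGGAC at 28 and 35 nt from the summit in the respective lists.

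For context, 2 further lists of replication genes were counted in the same way. Of 32 other genes of the fork and of chromatin replication, 18 had a peak in both lists (56.3%), against 37.0% for protein-coding genes of like exonic length and 33.4% for all of them. The strongest were CHAF1A, the large subunit of the chromatin assembly factor, at 12.5 and 10.6, and ATAD5, which unloads PCNA, at 13.4 and 6.91. Of 8 genes of nucleotide supply, 1 had a peak in both lists (12.5%), against 28.4% for protein-coding genes of like exonic length. It was RRM2, the small subunit of ribonucleotide reductase, at 9.89 and 8.05. A further 4 had a peak in replicate 1 alone. Of 5 epithelial genes counted to look at the cell line, CDH1 alone had a peak in both lists (20%), against 37.9% for genes of like length. KRT8, KRT18, EPCAM and ERBB2 had none, and the lists do not give the level of any of these genes. With 8 and 5 genes, neither share is read as a difference.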

How the data were processed

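meRIP-seq peak lists of 2 m6A IP samples of OE-19 cells were analysed. The study's methods give DNase-treated, fragmented total RNA, TopHat2 and MACS2 with default settings, whereas the labels describe UV-fixed cells and name fastp, HISAT2 and MACS2. Releases, and whether the input was the control, are not given in the sources used here. The authors deposited for each peak of hg38 a fold enrichment (a ratio over the caller's background), −log10 values for both the p-value and the q-value, a score (10 times −log10 q, not used) and a summit. The lists end at a q of 0.05.

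A summit in an exon of GENCODE 44 was assigned to that gene, with protein-coding genes preferred and members first. Peaks overlapping by 1 bp were called shared. Exonic length was binned into 20 equal-count bins. The longest-CDS transcript gave regions, with a stop codon window of 200 nt either way, and motif searches reached 50 nt from each summit. Positions for comparison were enumerated, not drawn. No test was run, because each list is 1 library and the members were fixed by name. Members and lists were chosen with earlier results of these data known. All members are named with their peak status, and the strongest shared peak is given for each. Sequences follow the 4 largest geometric means of fold enrichment with the summit in CDS, and the context genes the 3 largest. The 21 nt sites of MCM2, MCM3, MCM5, POLD3 and RFC1 were chosen after their values were seen. Code was tested on simulated data. Software was Python 3.11.15 with numpy 2.4.6, pysam 0.24.0, statsmodels 0.14.6 (intervals) and matplotlib 3.10.9. Alternatives covered thresholds on q and fold enrichment, equal list sizes, gene assignment, overlap, length bins (longest exon added after the data were seen), windows and transcripts.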

Additional observations from a re-analysis of the deposited data

How the results depend on the processing

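The share of members with a peak in both lists (42.2%) stayed inside its interval under every alternative tried except a fold enrichment of 5 or more. That setting gave 13.3% of members, 38.9% of replicate 1 member peaks shared, and medians of fold enrichment of 7.26 and 7.20 for the respective lists. It keeps fewer peaks by construction. With 1 list left out, the share ranged from 42.2% to 51.1%. The median fold enrichment of replicate 1 moved to 5.84 with q of 1e-05 or less, with an equal number of peaks per list and with the strongest peak of each gene, and to 5.93 with shared peaks only. GGAC was present at 29.7% of replicate 1 and 12% of replicate 2 member summits in a window of 25 nt, and at 70.3% and 64% in a window of 100 nt. In the other 63 of 75 recalculated values, the value lay within its 95% interval or, for a median, within 1 SD between the lists. Some of these could not move. Length bins change only the share of all genes, and equal list sizes leave the replicate 2 list whole. Keeping shared peaks only leaves all 25 member peaks of replicate 2. Without summits in exons of several genes the share was 37.8%, beside 33.3% for genes of like exonic length. No paired analysis was possible because the input samples have no list here and a single group has values. The number of member peaks, 37 and 25, limits the precision.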

Other observations

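Intronic peaks of the members were counted outside places where another gene overlaps, with no count made over all genes. Replicate 1 had 1, in LIG1, with a fold enrichment of 4.58. Replicate 2 had 2, in ORC4 at 6.28 and in PRIM2 at 5.16. None of the 3 was shared between the lists, and LIG1 and PRIM2 had no exonic peak.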
